A study of Mus musculus with 10 samples.

Results

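The end of neurogenesis and the days around birth were followed in the neocortex of CD1 wild-type mice, an outbred laboratory strain, by setting the 2 libraries from the day of birth (P0) against the 2 libraries from embryonic day 17 (E17). These 4 libraries were chosen by their labelled stage from the 10 libraries of the series, which also covers E12.5, E14 and E15.5 with 2 libraries each. The labels name no transgene and no treatment, and each library was made from polyadenylated RNA of a detergent cleared lysate of frozen neocortex. Values are TPM, a gene's share of all transcripts of its library after correction for gene length. Of the 6147 genes of the deposited table, the 6048 with a mean of at least 1 TPM over the 10 libraries were compared. The labels call the 2 libraries of a stage biological duplicates and do not say how many animals went into each, so the p-values measure the spread between such libraries.

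In the late embryonic neocortex, radial glia in the ventricular zone and intermediate progenitors in the subventricular zone produce the last excitatory neurons, which migrate outward and settle in layers. Around birth the progenitors turn to making glia, first astrocytes, while the settled neurons extend dendrites and axons and begin to form synapses. Bulk RNA shows the sum over these cells, and fewer cells of a type cannot be told apart here from less RNA per cell.

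The labelled tissue was checked first. Emx1, a transcription factor of the dorsal forebrain, was at 76.9 and 58.5 TPM at E17 and 54.2 and 51.0 TPM at P0. Its own change to P0 was -0.35 on the log2(TPM + 1) scale (adjusted p 0.0368 in limma). Between 5990 and 6027 listed genes were at 1 TPM or more per library, and the listed genes held between 68.9% and 70.3% of all TPM; TPM do not carry read depth. The 2 E17 libraries stood further apart than the 2 P0 libraries: the SD over genes of the difference between replicates was 0.285 at E17 and 0.176 at P0 on the log2(TPM + 1) scale. Calls were therefore repeated against each E17 library alone, and the medians of the main gene lists are given against each.

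From E17 to P0, 781 genes were higher and 1744 lower at P0, 2525 of 6048 in all (41.7% of the genes tested; 12.9% higher and 28.8% lower), at a Benjamini-Hochberg adjusted p under 0.05 in limma. A change is said to hold when it was called in the same direction with both E17 libraries, with E17 replicate 1 alone and with E17 replicate 2 alone. By this rule 613 genes held higher (10.1% of the genes tested) and 1325 held lower (21.9%), 1938 in all (32%). Among the 587 called genes that did not hold, 476 were called against replicate 1 alone but not against replicate 2 alone, and 111 the other way round. All 1938 held genes had E17 and P0 libraries that did not overlap, which the rule for holding nearly fixes in advance. Of the genes tested, 22% had both P0 libraries above both E17 libraries and 39.9% had both below. A change of at least 1 on the log2 scale was seen in 41 genes that held higher and 182 that held lower. With 1 E17 library the spread comes from the other stages only, so the lone library is assumed to vary like them. The E17 libraries differed more than those of P0 (SD 0.285 against 0.176). The fits with 1 E17 library can therefore understate the spread and call too many genes. The median SE was 0.0963 with E17 replicate 1 alone, against 0.1075 with both. With only these 4 libraries in the fit, 1112 of the 1938 held genes were called.

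How many genes counted as higher and how many as lower moved with the scaling. TPM are shares of a fixed total, and the median change over all genes was -0.10; median-of-ratios scaling, which brings that median to 0.01, called 1287 genes higher and 1370 lower, and quantile normalization 1256 and 1187. Under median-of-ratios scaling all 613 genes that held higher were again called higher, and 1184 of the 1325 that held lower were again called lower.

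**Figure D1:**
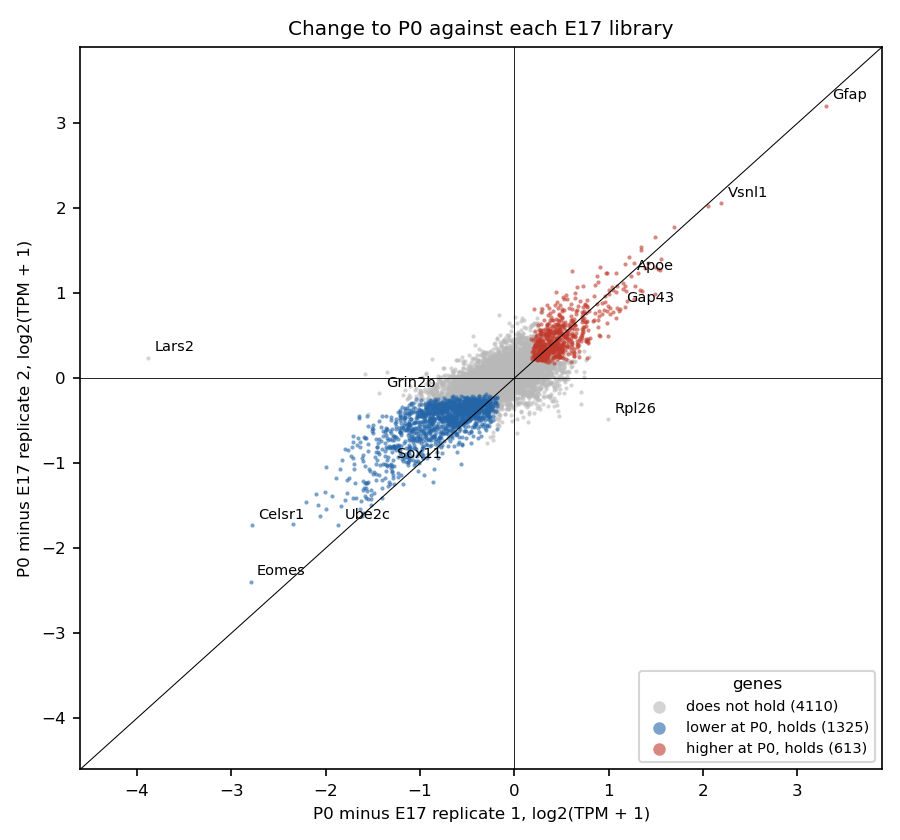
Each point is a gene; the x axis is its change from E17 replicate 1 to P0 and the y axis its change from E17 replicate 2 to P0, both on the log2(TPM + 1) scale, with the 613 genes that held higher in red and the 1325 that held lower in blue. Gfap and Eomes lie near the diagonal, where both E17 libraries give the same change, while Lars2 (-3.88 and 0.24) and Rpl26 (0.99 and -0.48) lie far from it.

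Of the genes that held and had a mean of at least 10 TPM over the 4 libraries, 12 that rose most and 12 that fell most are described. From here on, a value in parentheses after a gene is its P0 minus E17 difference on the log2(TPM + 1) scale. The largest rise was that of Gfap, which encodes the intermediate filament protein of astrocytes (chromosome 11, 102887336 to 102900912, reverse strand, GRCm38). It was at 1.79 and 1.98 TPM at E17 and 27.7 and 25.5 TPM at P0, which is 14.1-fold higher in mean TPM and 3.26 (SE 0.11, adjusted p 4.81e-08) on the log2 scale. It was at no more than 1.25 TPM in any of the 6 earlier libraries. Vsnl1, a neuronal calcium sensor (chromosome 12, 11325242 to 11436613, reverse strand), was at 34.1 and 37.5 TPM at E17 and 154 and 166 TPM at P0 (2.13, SE 0.12, adjusted p 1.06e-06). Gda, a guanine deaminase of dendrites, was at 15.0 and 15.4 TPM at E17 and 59.6 and 72.5 TPM at P0 (2.04, SE 0.14, adjusted p 4.83e-06). For each of these the 2 E17 libraries lay close together and far below both P0 libraries. Tuba4a, an alpha-tubulin, was at 7.401 and 6.91 TPM at E17 and 25.9 and 26.3 TPM at P0 (1.73 on the log2 scale). Tbc1d5, a regulator of Rab GTPases, was at 15.4 and 13.6 TPM at E17 and 42.9 and 47.7 TPM at P0 (1.58). Osbpl1a, a sterol-binding protein of endosomes, was at 27.1 and 30.3 TPM at E17 and 80.0 and 82.8 TPM at P0 (1.48). Signalling proteins that calcium acts on were also among the 12 largest rises. Ptk2b, a calcium-activated tyrosine kinase, was at 9.32 and 8.03 TPM at E17 and 24.3 and 26.3 TPM at P0 (1.45). Rasgrp2, a calcium-regulated exchange factor for Rap, was at 12.52 and 11.1 TPM at E17 and 34.9 and 32.0 TPM at P0 (1.43). Ncald, a calcium sensor of the same family as Vsnl1, was at 189 and 214 TPM at E17 and 522 and 548 TPM at P0 (1.41). Necab1, an EF-hand protein of neurons, was at 65.5 and 69.4 TPM at E17 and 154.5 and 192 TPM at P0 (1.34). Gabra5, a GABA-A receptor subunit, was at 21.2 and 25.9 TPM at E17 and 65.2 and 62.7 TPM at P0 (1.41). Adap1, a regulator of Arf6 in neurons, was at 64.7 and 67.3 TPM at E17 and 188 and 162 TPM at P0 (1.39). In limma the adjusted p-values of the 12 rises ran from 4.81e-08 to 1.68e-05. Tbc1d5 and Ncald each overlap another gene model on the same strand, so reads may be shared.

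The largest of these falls was that of Eomes, the transcription factor that marks intermediate progenitors (chromosome 9, 118478212 to 118486132, forward strand). It was at 63.1 and 47.5 TPM at E17 and 8.28 and 8.20 TPM at P0, 6.71-fold lower in mean TPM and -2.59 (SE 0.11, adjusted p 2.53e-07) on the log2 scale. Mest, an imprinted gene expressed from the paternal allele, was at 149.9 and 95.9 TPM at E17 and 32.2 and 25.3 TPM at P0 (-2.03, SE 0.17, adjusted p 1.4e-05). Igfbpl1, an IGF-binding protein-like gene, was the most abundant of the 12, at 867 and 632 TPM at E17 and 242 and 195 TPM at P0 (-1.76, SE 0.14, adjusted p 8.53e-06). Both P0 libraries lay well below both E17 libraries, and E17 replicate 1 was the higher E17 library for all 3. Receptors were in this set: Cdon, a co-receptor for hedgehog, was at 52.5 and 30.7 TPM at E17 and 10.4 and 10.8 TPM at P0 (-1.83). Fzd1, a Wnt receptor, was at 30.0 and 19.5 TPM at E17 and 6.76 and 5.89 TPM at P0 (-1.78). Nrp1, a co-receptor for semaphorins, was at 62.5 and 42.5 TPM at E17 and 15.9 and 15.4 TPM at P0 (-1.66). Igf2bp1, an RNA-binding protein of fetal tissues, was at 29.2 and 18.1 TPM at E17 and 7.07 and 6.03 TPM at P0 (-1.67). The other 5 genes act in the cell cycle. Of these, Spc25, a kinetochore protein, was at 28.0 and 28.2 TPM at E17 and 9.40 and 7.63 TPM at P0 (-1.62), and Tk1, Ube2c, Aurkb and Hmgb2 are described with their groups.

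**Figure D2:**
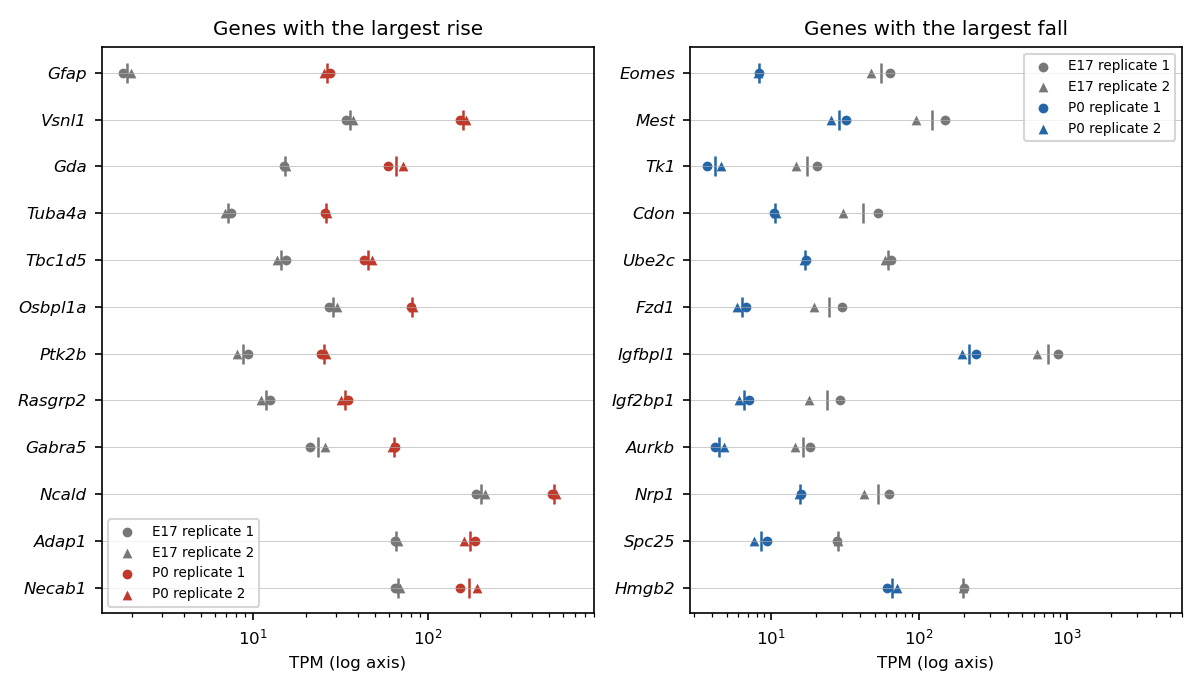
TPM on a log axis for the 12 genes that rose most (left) and the 12 that fell most (right); circles and triangles are replicates 1 and 2, grey is E17, colour is P0, and the vertical tick is the mean of 2. By the rule that chose these genes, no P0 value overlaps an E17 value. E17 replicate 1 lies above replicate 2 for most of the falls.

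The genes of mitosis fell nearly as a whole. Of 38 tested genes of the mitosis list, 36 were called lower and 0 higher, and 36 held, with a median change of -1.19 against -0.10 over all genes (-1.30 and -1.04 against each E17 library). Ube2c, the ubiquitin-conjugating enzyme of the anaphase-promoting complex, was at 64.7 and 58.5 TPM at E17 and 17.3 and 16.7 TPM at P0 (-1.80, SE 0.09, adjusted p 8.34e-07). Hmgb2, a chromatin protein of dividing cells that belongs to the chromatin list, was at 201 and 198 TPM at E17 and 60.4 and 70.4 TPM at P0 (-1.60). Aurkb, a kinase of the chromosomal passenger complex, was at 18.4 and 14.5 TPM at E17 and 4.16 and 4.77 TPM at P0 (-1.67). Ccna2, a cyclin of S and G2 phase, was at 58.4 and 48.2 TPM at E17 and 16.6 and 18.6 TPM at P0 (-1.54). Cdk1, the main mitotic kinase, was at 39.8 and 34.4 TPM at E17 and 14.1 and 12.46 TPM at P0 (-1.42). Prc1, which bundles the spindle midzone, was at 24.5 and 22.7 TPM at E17 and 6.52 and 7.94 TPM at P0 (-1.58). In all of these the 2 E17 libraries differed little beside the gap to P0. The 2 genes not called were Bub3 (-0.10) and Ckap5 (-0.07). Summed over the list, TPM were 907 and 811 at E17 and 364 and 397 at P0, so the transcripts had not disappeared at birth.

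DNA replication genes fell less far. Of 36 tested, 28 were lower, 27 held, and 0 were higher, with a median change of -0.48; 15 were called lower with only these 4 libraries in the fit and 17 after quantile normalization. For these genes the median was -0.57 against E17 replicate 1 alone and -0.46 against replicate 2 alone. Tk1, the S-phase thymidine kinase, was at 20.3 and 14.8 TPM at E17 and 3.70 and 4.58 TPM at P0 (-1.84). Uhrf1, which recruits the maintenance DNA methyltransferase, was at 11.0 and 9.86 TPM at E17 and 3.09 and 3.45 TPM at P0 (-1.42). Mcm3, a subunit of the replicative helicase, was at 13.4 and 10.5 TPM at E17 and 4.50 and 4.82 TPM at P0 (-1.18). The helicase subunits were unequal: Mcm2 was 2.26-fold lower in mean TPM, while Mcm5 fell by 0.83, Mcm4 by 0.81, Mcm6 by 0.48 and Mcm7 by 0.47 on the log2 scale. Pcna, the sliding clamp, was at 92.0 and 84.1 TPM at E17 and 64.8 and 64.7 TPM at P0 (-0.44). Rpa1, the largest subunit of the single-strand binding protein, was at 22.3 and 21.7 TPM at E17 and 18.7 and 22.7 TPM at P0 (-0.09, not called). Of 11 tested cyclin, kinase and inhibitor genes, 10 were lower and 9 held. Cdk6, a G1 kinase, was at 104 and 63.0 TPM at E17 and 24.2 and 30.7 TPM at P0 (-1.54). Ccnd2, its cyclin partner in progenitors, was at 462 and 391 TPM at E17 and 202 and 206 TPM at P0 (-1.05), and Cdkn1b, a cell cycle inhibitor, also fell, from 402 to 283 TPM in the mean (-0.50). Cdk2, a kinase of the G1 to S transition (-1.21), Cdkn2c, an inhibitor of G1 kinases (-1.05), Rbl1, a retinoblastoma relative (-0.96), Cdk4 (-0.74), Ccnd1 (-0.56) and Rb1 (-0.29) were the other genes that held.

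Because the mitosis and replication genes moved together, their promoters are shown with the sequence elements that are textbook features of cell cycle genes: the cell cycle homology region (CHR), searched as TTTGAA or TTCGAA, the CCAAT box, searched as CCAAT, and the E2F site, searched as TTTCCCGC or TTTGGCGC, each on both strands. Sequences are from RefSeq (GRCm38.p6), 5′ to 3′ on the strand of the gene, from 250 bases before to 50 after its start, with the first entry of a gene used; 4769 of 6048 tested genes had one. Capitals mark CHR and CCAAT matches in 3 mitosis genes, and matches that overlap run together.
Ube2c (chr2:164769679-164769978, forward strand): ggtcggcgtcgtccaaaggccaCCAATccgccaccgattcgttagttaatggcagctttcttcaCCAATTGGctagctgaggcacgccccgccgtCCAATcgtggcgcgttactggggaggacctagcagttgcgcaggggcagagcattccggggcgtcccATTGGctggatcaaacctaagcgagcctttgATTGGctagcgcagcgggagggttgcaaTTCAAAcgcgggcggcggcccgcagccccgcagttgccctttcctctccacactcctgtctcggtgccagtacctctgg
Prc1 (chr7:80294201-80294500, forward strand): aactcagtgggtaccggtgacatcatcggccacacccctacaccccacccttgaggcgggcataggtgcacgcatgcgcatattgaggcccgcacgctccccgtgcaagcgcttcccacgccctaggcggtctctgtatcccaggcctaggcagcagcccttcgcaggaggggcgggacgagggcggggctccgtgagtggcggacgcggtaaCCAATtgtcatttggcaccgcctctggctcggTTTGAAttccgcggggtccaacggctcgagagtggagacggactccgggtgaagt
Top2a (chr11:99024140-99024439, reverse strand): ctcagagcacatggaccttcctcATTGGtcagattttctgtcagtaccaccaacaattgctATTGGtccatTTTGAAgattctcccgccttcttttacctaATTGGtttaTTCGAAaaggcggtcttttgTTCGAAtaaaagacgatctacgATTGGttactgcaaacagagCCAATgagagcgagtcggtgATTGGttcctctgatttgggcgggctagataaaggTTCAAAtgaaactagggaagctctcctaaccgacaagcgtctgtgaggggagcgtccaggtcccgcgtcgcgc
In the next 2, of replication genes, capitals mark E2F and CCAAT matches.
Mcm5 (chr8:75109259-75109558, forward strand): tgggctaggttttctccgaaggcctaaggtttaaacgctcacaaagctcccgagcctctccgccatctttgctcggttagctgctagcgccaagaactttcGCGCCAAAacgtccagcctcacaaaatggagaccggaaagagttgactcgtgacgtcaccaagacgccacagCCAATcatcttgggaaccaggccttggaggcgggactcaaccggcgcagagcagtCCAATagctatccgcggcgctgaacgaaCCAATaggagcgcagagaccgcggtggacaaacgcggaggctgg
Mcm7 (chr5:138171834-138172133, reverse strand): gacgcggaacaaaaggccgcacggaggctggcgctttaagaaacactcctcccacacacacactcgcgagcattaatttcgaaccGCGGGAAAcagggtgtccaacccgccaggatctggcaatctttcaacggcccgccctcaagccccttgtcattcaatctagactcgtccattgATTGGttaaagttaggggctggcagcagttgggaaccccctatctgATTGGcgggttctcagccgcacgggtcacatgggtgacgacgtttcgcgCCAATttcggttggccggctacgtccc
The nearest CHR match began 29 bases before the start in Ube2c, 5 before in Prc1 and 23 before in Top2a.

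A CHR match lay within 50 bases of the start in 22 of 32 mitosis promoters (68.8%), in 0 of 29 replication promoters and in 3.59% of all 4769 promoters of tested genes. Over the whole window these shares were 78.1%, 17.2% and 13.2%. The E2F letters were in 7 of 29 replication promoters (24.1%), 2 of 32 mitosis promoters (6.25%) and 3.48% of all promoters of tested genes. CCAAT was in 71.9% of mitosis, 65.5% of replication and 38.4% of tested promoters. Across all genes that held lower, CHR near the start was in 6.51% of 1045 promoters, against 2.46% of 488 for genes that held higher. Of the 68 matched promoters of genes that held lower, 20 belong to the mitosis list. The 6.51% is therefore not separate from the mitosis share, and the share without mitosis genes was not computed. These matches describe letters and are not shown to be sites; of all 27025 RefSeq promoters, 5.29% held a CHR match near the start, 37.9% a CCAAT match and 1.63% an E2F match over the whole window.

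The progenitor genes fell with the cell cycle genes. Of 20 tested radial glia genes, 16 were lower, 0 higher and 15 held, with a median change of -0.87 (-1.05 and -0.68 against each E17 library). Celsr1, a planar polarity cadherin, fell most, from 18.3 and 8.31 TPM at E17 to 1.84 and 1.78 at P0 (-2.78 and -1.73). Pax6, a transcription factor of cortical radial glia, was at 37.4 and 29.0 TPM at E17 and 13.1 and 14.7 TPM at P0 (-1.19). Notch1, the receptor that keeps progenitors undifferentiated, was at 15.0 and 7.21 TPM at E17 and 3.69 and 3.56 TPM at P0 (-1.31). Vim, an intermediate filament of these cells, was at 197 and 189 TPM at E17 and 95.9 and 92.7 TPM at P0 (-1.02). Nes, another, was at 40.3 and 37.4 TPM at E17 and 16.5 and 19.5 TPM at P0 (-1.08). Sox2, a transcription factor of neural progenitors, fell by 0.21 without holding, and Slc1a3, a glutamate transporter, was at 83.6 and 70.9 TPM at E17 and 67.7 and 64.2 TPM at P0 (-0.22, not called). Fabp7, the brain lipid-binding protein, was at 1079.6 and 1622 TPM at E17 and 1392 and 1420.3 TPM at P0, so that its E17 values lie on either side of P0 (0.38 against replicate 1 and -0.21 against replicate 2). Only 6 of 16 intermediate progenitor genes were tested, and 4 held lower. Beside Eomes these were Insm1, a zinc finger factor of delaminating progenitors, at 102 and 75.7 TPM at E17 and 30.2 and 28.2 TPM at P0 (-1.56), Pgap1 (-1.30) and Gpm6a, a membrane glycoprotein also of neurons (-0.38).

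**Figure D3:**
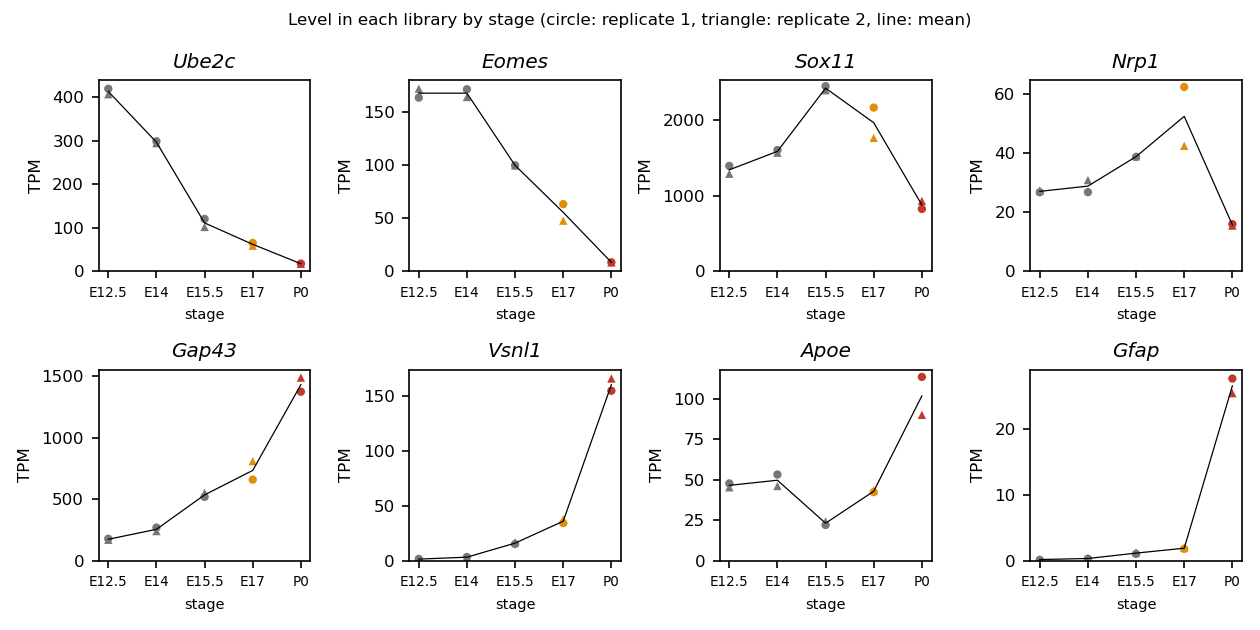
TPM in each of the 10 libraries by stage for 8 genes named in the text; circles are replicate 1, triangles replicate 2 and the line is the mean. Ube2c and Eomes fall over several stages, Sox11 and Nrp1 are lower at P0 than at every earlier stage, and Gap43, Vsnl1, Apoe and Gfap are highest at P0.

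More genes of newborn, migrating neurons fell than rose. The share of this list that held lower was 50%, against 21.9% of all genes tested. The share that held higher, 11.5%, was near the 10.1% of all genes tested. Of 26 tested, 13 held lower and 3 higher, from 14 called lower and 5 called higher. For this list the median was -0.58 against E17 replicate 1 alone and -0.24 against replicate 2 alone. Of the rises, 0 were called with only these 4 libraries in the fit and 2 without P0 replicate 2. Sox11, a transcription factor of immature neurons, was at 2164 and 1763 TPM at E17 and 822 and 928 TPM at P0 (-1.16, SE 0.11, adjusted p 2.86e-05), below its level at every earlier stage, where the lowest library was at 1289 TPM. Sox4, its close relative, was at 919.8 and 796 TPM at E17 and 535 and 620.3 TPM at P0 (-0.57). Neurod2 was at 657 and 462 TPM at E17 and 381 and 353 TPM at P0 (-0.59). Lrp8, a receptor for reelin, was at 159 and 107 TPM at E17 and 63.0 and 69.3 TPM at P0 (-0.97). Nde1, a dynein regulator of dividing progenitors, fell by 1.41, while its paralog Ndel1, which acts in neurons, was called higher (0.29) without holding. Cdk5, a kinase required for migration (0.39), and Pafah1b1, which encodes LIS1 (0.32), held higher by small amounts. Stmn2, a microtubule regulator of growth cones, was at 2395 and 2837 TPM at E17 and 3953 and 3944 TPM at P0 (0.60). Dcx, the microtubule protein that marks migrating neurons, was at 2557 and 2077 TPM at E17 and 1689 and 2301 TPM at P0 (-0.23, not called).

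Most axon guidance receptors and ligands fell, while a few genes of axons and growth cones rose. The share of this list that held lower was 60.5%, against 21.9% of all genes tested. The share that held higher, 11.6%, was near the 10.1% of all genes tested. Of 43 tested genes, 29 were lower and 26 held, 5 were higher and all 5 held. The median change was -0.71, with -1.02 against E17 replicate 1 and -0.37 against replicate 2, and against replicate 2 alone 26 genes were lower and 8 higher. Among receptors, Nrp2 was at 28.8 and 19.0 TPM at E17 and 7.95 and 7.52 TPM at P0 (-1.48). Plxna2, a semaphorin receptor, was at 145 and 79.5 TPM at E17 and 39.7 and 41.1 TPM at P0 (-1.39). Dcc, the netrin receptor, was at 13.7 and 6.61 TPM at E17 and 1.94 and 3.61 TPM at P0 (-1.52). Robo1, a Slit receptor, was at 50.6 and 37.2 TPM at E17 and 20.2 and 21.9 TPM at P0 (-1.01). Every one of these was lower at P0 in both libraries, with E17 replicate 1 the highest of the 4. Among ligands, Draxin, a secreted guidance cue, was at 390.3 and 262 TPM at E17 and 124.5 and 107 TPM at P0 (-1.47). Efnb1 was at 139 and 79.9 TPM at E17 and 41.0 and 34.7 TPM at P0 (-1.46). Slit1 was at 22.9 and 11.0 TPM at E17 and 7.86 and 6.48 TPM at P0 (-1.06). Cntn2, an adhesion protein of early axons, was at 496 and 306 TPM at E17 and 156 and 149 TPM at P0 (-1.35). Cntn1 of the same family was at 26.0 and 27.7 TPM at E17 and 45.5 and 43.1 TPM at P0 (0.70). Gap43, the main growth cone phosphoprotein, was at 658 and 809 TPM at E17 and 1373 and 1488 TPM at P0 (0.97, SE 0.10, adjusted p 5.83e-05). Crmp1, a mediator of semaphorin signals in the cytoplasm, was at 714 and 616 TPM at E17 and 935 and 992 TPM at P0 (0.54). Basp1 (0.14) and Marcksl1 (0.13), also of the growth cone membrane, were not called. The other rises of the list were Efna5, an ephrin (0.44), and Dpysl4, a relative of Crmp1 (0.41).

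Layer identity genes did not move as a group. Of 9 deep layer genes, 4 held lower and 2 higher. Nfib was at 745 and 628 TPM at E17 and 324 and 361 TPM at P0 (-0.998). Sox5 was at 129 and 96.2 TPM at E17 and 52.4 and 66.1 TPM at P0 (-0.91). Bcl11b, a factor of subcortical projection neurons, was at 126 and 89.2 TPM at E17 and 66.2 and 79.9 TPM at P0 (-0.54). Foxp1, whose gene overlaps other gene models on the same strand, was at 62.3 and 57.0 TPM at E17 and 91.8 and 107 TPM at P0 (0.72). Tbr1, a factor of corticothalamic neurons, held lower (-0.48) and Ldb2 higher (0.47). Of 6 upper layer genes, Mef2c, an activity-dependent factor, held higher at 446 and 493 TPM at E17 and 763 and 981 TPM at P0 (0.88). Pou3f2 held lower, at 313 and 284 TPM at E17 and 143 and 174 TPM at P0 (-0.91). Cux1 held lower (-0.38). Of 6 subplate genes, Gabra5 and Nefl, the light neurofilament (0.71), held higher and Lpar1, a lysophosphatidic acid receptor, held lower (-1.33).

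More presynaptic genes rose than fell. Of 45 tested, 25 were higher and 23 held, 3 were lower and 2 held, with a median change of 0.33 (0.22 and 0.44 against each E17 library). With only these 4 libraries in the fit 15 were called higher, and against E17 replicate 1 alone 10 were called lower. Sncb, beta-synuclein, was at 122 and 109 TPM at E17 and 265 and 250.4 TPM at P0 (1.16, SE 0.12, adjusted p 4.49e-05). In mean TPM it was 2.24-fold higher at P0, and the groups do not overlap. Stx1a, a plasma membrane SNARE, was at 84.5 and 70.0 TPM at E17 and 172 and 161 TPM at P0 (1.10). Vamp2, the vesicle SNARE, was at 999 and 936 TPM at E17 and 1499.7 and 1386 TPM at P0 (0.58). Snap25, the third SNARE, changed by 0.44, and Cplx2, a complexin that clamps the SNARE complex, was at 1174 and 906 TPM at E17 and 1684 and 1785 TPM at P0 (0.75). Genes of the active zone scaffold did not follow as a set: Erc2 (0.70) and Rims1 (0.47) held higher, Pclo was at 17.6 and 10.3 TPM at E17 and 9.03 and 11.5 TPM at P0 (-0.37, not called) and Unc13b was called lower (-0.49). The vesicle proteins Syp (0.05) and Sv2a (0.01) were not called, and Syt11, an atypical synaptotagmin, fell by 0.58. Rab3c, a vesicle GTPase, was the other that held lower (-0.36).

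Calcium signalling genes had the highest share of rises among the 33 gene lists with both E17 libraries, though not against E17 replicate 1 alone, where oxidative phosphorylation did (52 of 64 against 24 of 32). The lists were chosen with earlier results of these data known, so this ranking is a description and not a test. Of 32 calcium signalling genes tested, 22 were higher and all 22 held, and 1 held lower. The median change was 0.46, with 0.45 and 0.56 against each E17 library. Vsnl1, Ncald and Necab1 led, followed by Prkcb, a protein kinase C, at 23.7 and 20.4 TPM at E17 and 49.3 and 65.3 TPM at P0 (1.33). All 4 CaM kinase II subunits held higher: Camk2a was at 19.2 and 15.0 TPM at E17 and 35.7 and 36.5 TPM at P0 (1.04). Camk2b was at 278 and 241 TPM at E17 and 389 and 404 TPM at P0 (0.61), Camk2d changed by 0.51 and Camk2g by 0.46. In level, which TPM gives per length, Camk2b was above Camk2a in all 4 libraries. Camk4, a nuclear CaM kinase, was at 70.5 and 68.2 TPM at E17 and 123 and 171 TPM at P0 (1.06). Calcineurin subunits Ppp3ca (0.56), Ppp3cb (0.45) and Ppp3r1 (0.34), the phosphatase that calcium and calmodulin activate, rose too; Ppp3r1 overlaps Wdr92 on the same strand, so reads may be shared. The one that fell was Itpr1, the calcium release channel of the endoplasmic reticulum, at 23.8 and 17.4 TPM at E17 and 12.8 and 15.2 TPM at P0 (-0.51).

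Postsynaptic genes showed no common direction. Of 38 tested, 2 held higher and 8 lower, with a median change of -0.01. The shares that held were 5.26% and 21.1%, against 10.1% and 21.9% of all genes tested. This list depended on the E17 library: 19 genes were lower and 2 higher against replicate 1, and 8 lower and 16 higher against replicate 2. Median-of-ratios scaling called 13 higher against 5, and 4 were called lower without P0 replicate 1 against 9 with it. Gria2, an AMPA receptor subunit, was at 126 and 103 TPM at E17 and 75.2 and 76.5 TPM at P0 (-0.58). Gria1 was at 80.4 and 58.0 TPM at E17 and 48.9 and 45.1 TPM at P0 (-0.53). Grik3, a kainate receptor subunit, was at 131 and 69.0 TPM at E17 and 48.4 and 52.9 TPM at P0 (-0.90). Grin2b, an NMDA receptor subunit, was called lower (-0.80, adjusted p 0.0425) but at 191 and 79.2 TPM at E17 and 63.3 and 78.0 TPM at P0, so that only E17 replicate 1 stood apart, and against replicate 2 alone its change was -0.17. Sorbs2, a cytoskeletal adaptor (-1.01), Kalrn, an exchange factor of dendritic spines (-0.77), Grik2 (-0.63), Homer3 (-0.61) and Dlg1 (-0.42) held lower too. Dlg4, the scaffold PSD-95, was at 216 and 185 TPM at E17 and 235 and 222 TPM at P0 (0.19, not called). Cnksr2, another scaffold, was at 15.98 and 13.3 TPM at E17 and 20.0 and 25.8 TPM at P0 (0.61). Of 19 channels and transporters, 2 held higher and 5 lower, with 2 called higher and 9 lower against E17 replicate 1 and 7 and 5 against replicate 2. With both E17 libraries 4 were called higher and 5 lower, against 1 and 2 without P0 replicate 1. The shares of channels and transporters that held, 10.5% higher and 26.3% lower, were near those of all genes tested. Among voltage-gated channels, the sodium channel Scn3a (-0.56), the calcium channel Cacna1e (-0.82) and the calcium channel subunits Cacna2d1 (-0.54) and Cacna2d2 (-0.56) held lower. Atp1b1, a sodium pump subunit, held higher and was at 139.6 and 139 TPM at E17 and 316 and 280.3 TPM at P0 (1.09). Slc8a1, a sodium-calcium exchanger, was at 27.5 and 14.5 TPM at E17 and 7.16 and 11.4 TPM at P0 (-1.06). Slc12a5, the potassium-chloride cotransporter that lowers neuronal chloride, was at 8.87 and 6.04 TPM at E17 and 12.6 and 9.77 TPM at P0, called higher (0.54) without holding, and Slc12a2, which imports chloride, at 19.1 and 17.3 TPM at E17 and 15.95 and 15.7 TPM at P0 (-0.19, not called).

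Among 33 cytoskeletal genes, 9 held higher and 2 lower. The count called higher was 11, against 4 with only these 4 libraries in the fit and 7 without P0 replicate 2. Against E17 replicate 1 alone 12 were higher and 9 lower, and against replicate 2 alone 13 and 2, with medians of 0.09 and 0.10. The alpha-tubulins parted: Tuba1c was at 13.8 and 10.6 TPM at E17 and 3.85 and 2.80 TPM at P0 (-1.61) while Tuba4a rose, and Tuba1b was not called (0.11). Of the beta-tubulins Tubb2a (0.43), Tubb4a (0.34) and Tubb4b (0.35) held higher, and the more abundant Tubb2b (-0.01) and Tubb5 (-0.02) were not called. Tubulin genes are similar in sequence, and how reads that match several of them were counted is not known here. Ank2, an ankyrin, was at 64.9 and 37.7 TPM at E17 and 25.5 and 31.4 TPM at P0 (-0.79).

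Astrocyte genes split into a rising and a falling set. Of 27 tested, 10 held higher and 7 lower, with a median change of 0.09 (0.14 and 0.32 against each E17 library). The share that held higher was 37%, against 10.1% of all genes tested. The share that held lower, 25.9%, was near the 21.9% of all genes tested. Beside Gfap, Apoe, the lipid carrier, was at 42.3 and 43.4 TPM at E17 and 114 and 90.1 TPM at P0 (1.22, SE 0.12, adjusted p 2.58e-05). Slc6a11, a GABA transporter, was at 27.2 and 20.4 TPM at E17 and 54.6 and 49.3 TPM at P0 (1.11). Glul, glutamine synthetase, was at 145 and 157 TPM at E17 and 206 and 251 TPM at P0 (0.59). Sparcl1, a secreted protein that promotes synapses, was at 69.4 and 67.8 TPM at E17 and 109 and 102 TPM at P0 (0.61). Aldh1l1, a folate enzyme of astrocytes, was at 8.81 and 8.91 TPM at E17 and 12.9 and 14.6 TPM at P0 (0.58). Cst3, a protease inhibitor, was at 275 and 353 TPM at E17 and 463 and 485 TPM at P0 (0.60). Ndrg2 was at 101 and 95.2 TPM at E17 and 147 and 136 TPM at P0 (0.52). Among the genes that fell were a surface proteoglycan, a cytoskeletal linker and transcription factors. Gpc4, a glypican, was at 21.2 and 15.0 TPM at E17 and 6.71 and 6.62 TPM at P0 (-1.30). Ezr, a linker of membrane and actin, was at 56.2 and 45.7 TPM at E17 and 20.9 and 23.0 TPM at P0 (-1.17). Nfia, a factor of gliogenesis, was at 246 and 186 TPM at E17 and 123 and 122 TPM at P0 (-0.80). Sox9 was at 23.3 and 20.99 TPM at E17 and 15.48 and 17.9 TPM at P0 (-0.39). With only these 4 libraries in the fit 9 astrocyte genes were called higher and 4 lower. Of 9 tested genes of the oligodendrocyte lineage list, 3 held higher. Cnp, a myelin enzyme, was at 11.1 and 10.7 TPM at E17 and 19.5 and 18.6 TPM at P0 (0.75). Matn4 was at 1.63 and 1.13 TPM at E17 and 3.61 and 2.64 TPM at P0 (0.79) and Cntn1, which neurons also make, was the other. Vcan, a matrix proteoglycan, held lower at 33.2 and 21.4 TPM at E17 and 12.4 and 13.6 TPM at P0 (-0.98).

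Most extracellular matrix genes fell, and so did most markers of meninges and both tested markers of vessels. Of 31 matrix genes, 23 were lower, 18 held and 2 held higher; 15 were called lower without P0 replicate 1 and 14 without P0 replicate 2. The median change was -0.54, with -0.83 and -0.35 against each E17 library. Mdk, the heparin-binding growth factor midkine, was at 186 and 136 TPM at E17 and 63.0 and 51.6 TPM at P0 (-1.46, SE 0.13, adjusted p 1.88e-05), while its relative Ptn was at 830.2 and 959 TPM at E17 and 1106 and 977 TPM at P0 (0.22, not called). Tnc, the tenascin of the germinal zones, was at 33.0 and 20.3 TPM at E17 and 12.6 and 11.0 TPM at P0 (-1.07). Among basement membrane genes, Col4a1 (-0.86), Lamc1 (-0.95) and Nid1 (-0.76) fell, and Bcan, a proteoglycan of the maturing brain, rose: it was at 15.7 and 11.8 TPM at E17 and 25.6 and 19.5 TPM at P0 (0.67). Of 11 meningeal genes 9 were lower and 8 held; the list summed to 280.0 and 245 TPM at E17 and 133 and 102 at P0. Most of that sum came from Igf2 and Igfbp2. Igf2, the imprinted fetal growth factor, whose gene overlaps another gene model on the same strand, was at 127 and 109 TPM at E17 and 47.6 and 38.0 TPM at P0 (-1.44). Igfbp2, an IGF-binding protein, was at 119 and 108 TPM at E17 and 69.0 and 49.2 TPM at P0 (-0.95). Col1a1, a fibroblast collagen, was at 1.91 and 0.969 TPM at E17 and 0.512 and 0.397 TPM at P0 (-0.72). Of 21 vascular genes 2 were tested and both fell: Slc2a1, the glucose transporter of the blood-brain barrier, was at 22.4 and 17.6 TPM at E17 and 7.62 and 6.26 TPM at P0 (-1.40). Cdh5, endothelial cadherin, was at 3.30 and 2.08 TPM at E17 and 1.28 and 1.02 TPM at P0 (-0.76). The part of meninges and vessels in the fall of the matrix genes was not tested.

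With both E17 libraries, the oxidative phosphorylation genes that were called all rose, by small amounts. Genes of glycolysis and hypoxia changed in both directions. Of 64 oxidative phosphorylation genes, 10 held higher (15.6%, against 10.1% of all genes tested). With both E17 libraries 20 were called higher and 0 lower, with a median change of 0.21. That count depended on the E17 library: 52 were higher against replicate 1 alone and 11 against replicate 2 alone, 2 with only these 4 libraries in the fit, 5 without P0 replicate 1 and 12 or 13 without any single library of E14 or E15.5. Ndufs5, a complex I subunit, was at 65.9 and 62.1 TPM at E17 and 109.9 and 92.3 TPM at P0 (0.65). Atp5a1, of ATP synthase, was at 378 and 404 TPM at E17 and 473 and 489 TPM at P0 (0.30). The other 8 that held changed by 0.24 to 0.51, from Uqcrc1 of complex III to Ndufa5 of complex I. Of 21 genes of glycolysis and hypoxia, 2 held higher and 6 lower, and isozymes differed. Those shares, 9.52% and 28.6%, were near the 10.1% and 21.9% of all genes tested. Eno2, the neuronal enolase, was at 42.1 and 47.9 TPM at E17 and 84.9 and 86.9 TPM at P0 (0.92). Eno1 was at 119 and 129 TPM at E17 and 130.1 and 129.7 TPM at P0 (0.07, not called), Hk1, the brain hexokinase, changed by 0.41 and Hk2, an isozyme of fetal and dividing cells, by -0.70. Pkm, pyruvate kinase (-0.29), Ldhb, a lactate dehydrogenase (-0.24), and P4ha1, a collagen prolyl hydroxylase that hypoxia induces (-0.83), held lower. Slc16a1, a monocarboxylate transporter, was at 24.1 and 21.9 TPM at E17 and 12.6 and 10.6 TPM at P0 (-0.93). Of 18 genes of sterol and fatty acid synthesis, 6 held lower and 0 higher. These are shares of 33.3% and 0%, against 21.9% and 10.1% of all genes tested. Fasn, fatty acid synthase, was not called (0.29). The count called lower was 7, against 2 with only these 4 libraries in the fit and 4 without P0 replicate 1.

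Lists of genes that respond to hormones and neuronal activity were thinly covered. Of 24 hormone targets 9 were tested and 4 held higher, Camk4, Glul and the metallothioneins Mt2, at 72.0 and 68.2 TPM at E17 and 109 and 104 TPM at P0 (0.59), and Mt1 (0.38). The other target that held was Ppp1r1b, a phosphatase inhibitor of striatal neurons, which was lower (-0.37, adjusted p 0.00556). Fkbp5 (-0.14) and Tsc22d3 (-0.19), which respond to glucocorticoids, were not called. Of 25 activity-induced genes 3 were tested and 0 called, with changes from -0.21 for Jund to -0.02 for Homer1; 2 were lower against E17 replicate 1 alone.

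Among regulators of RNA, the share that held lower was near that of all genes, and among regulators of chromatin it was higher. Of 35 RNA-binding regulators, 10 held lower and 3 higher, shares of 28.6% and 8.57% against 21.9% and 10.1% of all genes tested; 14 were called lower, 9 under median-of-ratios scaling and 7 without P0 replicate 1. The median change of the list was -0.19, with -0.29 and -0.15 against each E17 library. Srrm4, a splicing regulator of neurons (-0.83), Msi1 (-0.65) and Msi2 (-0.49), of neural progenitors, held lower. Igf2bp3 (-1.04) and Igf2bp2 (-0.93) fell beside Igf2bp1. Ptbp1, the splicing repressor of progenitors, was at 63.0 and 46.2 TPM at E17 and 30.9 and 33.6 TPM at P0 (-0.73), and its neuronal paralog Ptbp2 at 134 and 143 TPM at E17 and 116 and 137 TPM at P0 (-0.13, not called). Celf4 (0.43), Rbfox1 (0.39) and Nova1 (0.35), splicing regulators of neurons, held higher. Of 48 chromatin genes, 21 held lower and 2 higher (43.8% and 4.17%); 26 were called lower, 15 with only these 4 libraries in the fit and 14 without P0 replicate 1. The chromatin list had a median of -0.33, with -0.51 and -0.19 against each E17 library. Hmgb2, described with the mitosis genes, fell most of this list (-1.60). Ezh2, the Polycomb methyltransferase, was at 47.4 and 42.1 TPM at E17 and 21.98 and 25.6 TPM at P0 (-0.89). Lmnb1, a nuclear lamin, was at 169 and 148 TPM at E17 and 99.8 and 109 TPM at P0 (-0.59). Lmna, the lamin of differentiated cells, was at 6.03 and 4.75 TPM at E17 and 9.30 and 8.70 TPM at P0 (0.65). Chd5, a remodeller of neurons, was the other that held higher (0.54). In the BAF chromatin remodelling complex, Actl6a, a progenitor subunit, was at 33.5 and 29.0 TPM at E17 and 17.3 and 18.2 TPM at P0 (-0.78). Actl6b, its neuronal counterpart, was at 129 and 105 TPM at E17 and 129 and 117 TPM at P0 (0.08, not called).

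A set of genes gave opposite answers with the 2 E17 libraries. Against replicate 1 alone and replicate 2 alone, 44.9% and 24.7% of genes were called lower and 17.4% and 17.5% higher. Of these, 55 genes were called in opposite directions, 29 of them higher than replicate 1 and lower than replicate 2. Of those 29, 19 encode ribosomal proteins, and their median exonic length was 1444 bases against 5037 over all genes tested. The 64 ribosomal protein genes had a median change of 0.21 against replicate 1, with 38 higher, and of -0.20 against replicate 2, with 32 lower; 1 gene, Rpl13a, held lower (-0.72). Rpl13a overlaps other gene models on the same strand, so reads may be shared. The genes named next had the largest differences between the 2 E17 libraries, whether or not they were called in opposite directions. Rpl26, of the large subunit, was at 233 and 649 TPM at E17 and 445 and 485 TPM at P0. Its E17 values thus lie on either side of both P0 values. Rps21, of the small subunit, was at 857 and 1628 TPM at E17 and 1057 and 1351 TPM at P0. Rpl38, of the large subunit, was at 707 and 1294 TPM at E17 and 1083 and 1239 TPM at P0. Rps15, of the small subunit, was at 1185 and 2134 TPM at E17 and 1503 and 1772 TPM at P0, and all 4 were far higher in E17 replicate 2 than in replicate 1. Lars2, the mitochondrial leucyl-tRNA synthetase, was instead far higher in E17 replicate 1, at 798 and 44.8 TPM at E17 and 56.9 and 49.8 TPM at P0. A single library is thus more than 10 times any other of the 4. Soga1 was at 42.5 and 15.2 TPM at E17 and 12.1 and 21.3 TPM at P0. Spen, a transcriptional repressor, was at 21.7 and 8.85 TPM at E17 and 5.63 and 6.98 TPM at P0 and held lower (-1.04). After Lars2, Soga1, Grin2b and Spen had the largest excess of E17 replicate 1 over replicate 2. Rpl38, Lars2, Soga1, Grin2b and Spen were not among the genes called in opposite directions.

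The difference between the E17 libraries went with gene length. The genes tested were put into 5 groups of equal size by exonic length. From the shortest to the longest group, the median of E17 replicate 2 minus replicate 1 ran from 0.03 to -0.33. The median change to P0 ran from 0.06 to -0.43 against replicate 1 and from -0.01 to -0.14 against replicate 2. The share of genes that held lower was 14% in the shortest group and 31.2% in the longest. Across 6048 genes, which are not independent, Pearson's r of log2 length with replicate 2 minus replicate 1 was -0.45 at E17 and 0.40 at P0. The part of length in the lists of long genes, such as guidance receptors and matrix proteins, was tested only through a correction for length and GC content chosen after seeing the data. It called 28 guidance genes lower against 29 without it, 22 matrix genes against 23 and 9 oxidative phosphorylation genes higher against 20.

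**Figure D4:**
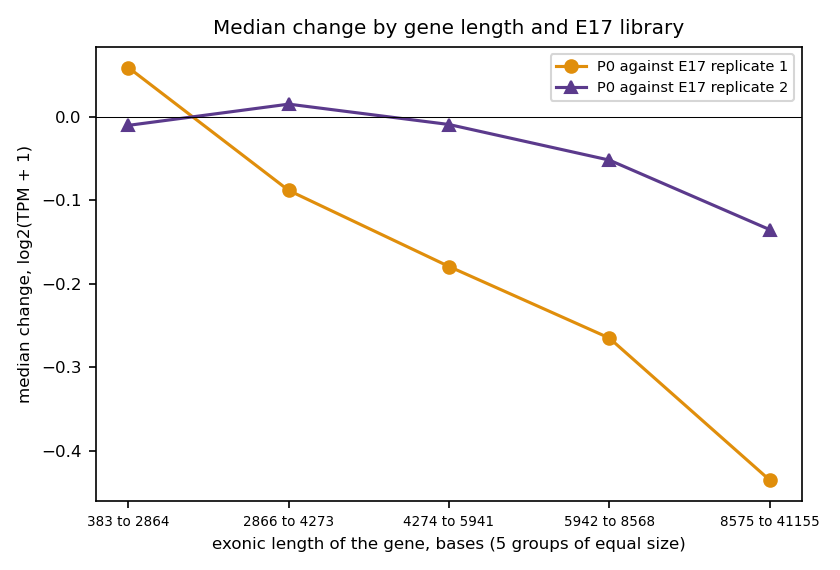
Median change from each E17 library to P0 on the log2(TPM + 1) scale (y axis) for 5 groups of the genes tested by exonic length in bases (x axis). The gap between the 2 lines widens from the shortest to the longest group, where the medians are -0.43 against replicate 1 and -0.14 against replicate 2.

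**Figure D5:**
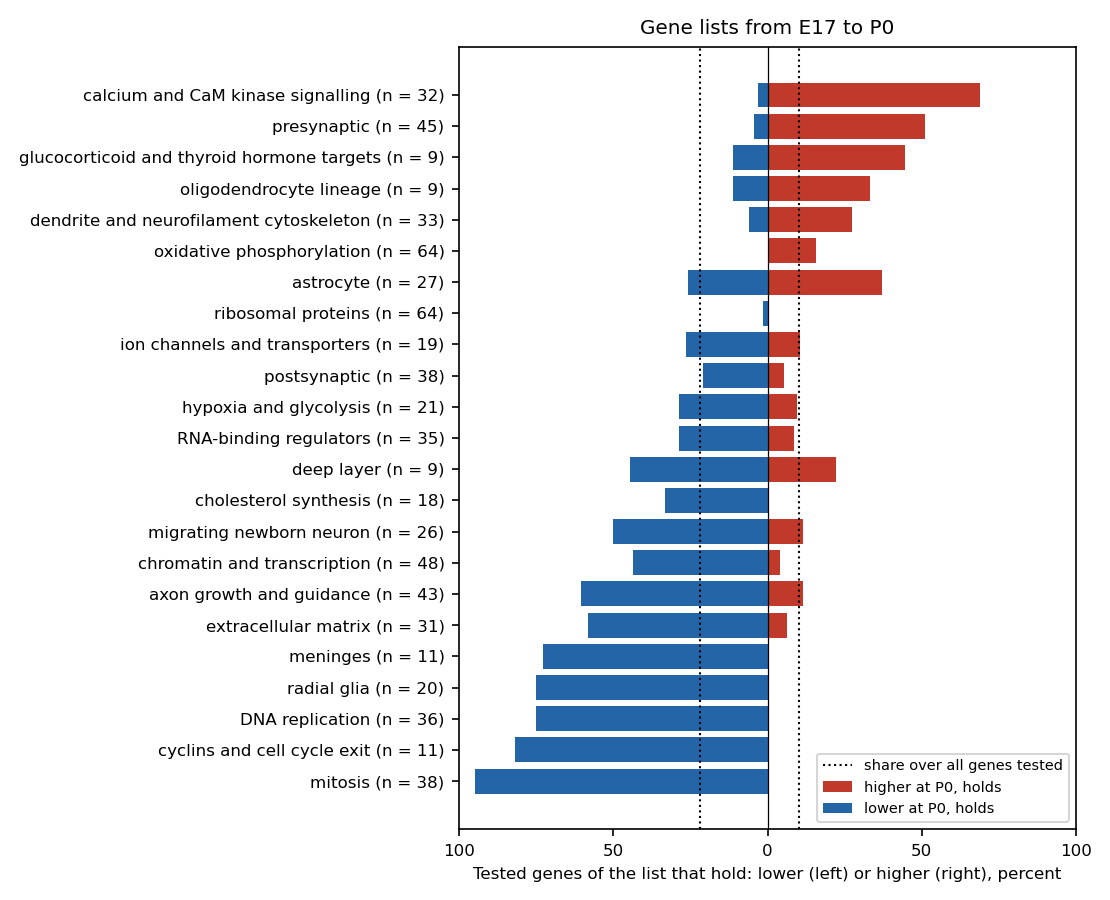
Share of the tested genes of each list that held lower (blue, left) or higher (red, right), in percent; n is the number of genes tested, lists with under 9 are not drawn, and the dotted lines are the shares over all genes tested (21.9% and 10.1%). Mitosis is at the lower end and calcium signalling at the upper end.

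Beside meninges and vessels, other cell types and tissues that a cortical dissection can hold were checked. Of 19 microglial genes 4 were tested and 0 called, and their sum was between 65.4 and 78.6 TPM in the 4 libraries. The 2 choroid plexus genes in the table, Ttr and Clic6, summed to between 3.06 and 5.26 TPM. Of 6 erythroid genes, 1 held lower, Slc4a1, the anion exchanger of red cells (-0.46), and Fech was called higher (0.26) without holding. Hbb-y, an embryonic globin, was at 8.29 and 1.99 TPM at E17 and 2.31 and 1.88 TPM at P0 (-0.77, not called). Of 3 tested genes of striatum and thalamus, Ppp1r1b held lower at 87.3 and 77.7 TPM at E17 and 64.7 and 62.5 TPM at P0. Of 5 interneuron genes 1 held lower and 0 higher. Where a list is said here to have 0 genes called in a direction, limma at an unadjusted p under 0.05 also gave 0 in that direction, except for 1 microglial and 1 interneuron gene called higher. Median-of-ratios scaling also called 1 microglial and 1 interneuron gene higher, and 1 gene of sterol and fatty acid synthesis called higher. No gene of any of the 33 lists that is in the table was at 0 in all 4 libraries.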

How the data were processed

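RNA from neocortex of CD1 wild-type mice was measured in 10 libraries, 2 per stage at 5 stages. The values are TPM per gene as deposited by the authors in 1 table; STAR, Subread and the build GRCm38.p5 are named in the submitters' processing notes, without their role, and the gene lengths behind the TPM, how the listed genes were selected and how reads shared by similar or overlapping genes were counted are not given in the sources. TPM keep no read depth, so no counting interval is given.

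The 6048 of 6147 genes whose mean over the 10 libraries reached 1 TPM were fitted with limma 3.58.1 in R 4.3.3 on log2(TPM + 1), with 1 mean per stage and a spread shared by all stages, empirical Bayes with a variance trend, and Benjamini-Hochberg adjustment over the 6048 genes. Changes are differences on this scale, which understates the change of low genes. The fit was repeated without each E17 library; these 3 fits share the P0 libraries and are not independent. An exact permutation test of 2 against 2 libraries cannot go below p = 0.333. The largest rises and falls were named among genes that held, had a mean of at least 10 TPM over the 4 libraries and did not overlap (12 each), with the 4 largest differences in each direction between the E17 libraries, the extremes of each list and members of a list under discussion; single interneuron genes are not named, and a few genes are not reported here. The members and the 33 gene lists were chosen with earlier results of these data known. Positions and exonic lengths are from GENCODE M21 (GRCm38). The procedure was tested on simulated data for this comparison with 6048 genes. When 200 genes were moved by 0.5 on the log2 scale, 187 were called and 128 held, with 11 false calls. When 200 were moved by 1, all 200 held, with 11 false calls. The simulated noise was independent and, at a given level, equal in all 10 libraries. In the data, replicates differed more at E17 than at P0 and differed with gene length. The simulated counts therefore do not give the error rate of these data.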

Additional observations from a re-analysis of the deposited data

How the results depend on the processing

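The count of genes called from E17 to P0 was 2525, of which 1938 held. Fitting only the 4 libraries of E17 and P0 gave 1126 and 954, and array weights, per library or per stage, gave 1145 and 1089. An adjusted p under 0.01 gave 1422 and 1252, and a minimum log2 change of 1 gave 223 and 223. Leaving out 1 library at a time gave 1641 to 3767 called genes, with the 1641 without P0 replicate 1 the only count more than 1.5 times from the main one. Leaving out a library of E12.5, E14 or E15.5 gave 1684 to 1788 genes that held. Without P0 replicate 1 or 2 the held counts, 1641 and 1966, equalled the called counts in each direction. Those held counts therefore cannot show how stable the rule for holding is. The held count needs both E17 libraries and was not computed without either. The share of calls that were higher was 30.9%, against 51.4% after quantile normalization (1256 higher and 1187 lower), 48.4% with median-of-ratios scaling (1287 and 1370), 41.5% without E17 replicate 1 (1061 and 1493) and 18.4% with the minimum change of 1. Ntng1 turned to 0.069 under quantile normalization. Without E17 replicate 1, Rpl26 turned to -0.48, Rps21 to -0.45, Rps15 to -0.39 and Fabp7 to -0.21, against 0.99, 0.48, 0.46 and 0.38 without E17 replicate 2. Sv2a turned to -0.24 without E17 replicate 2, against 0.26 without replicate 1. The P0 values of Rpl26, Rps21, Rps15 and Fabp7 lie between the 2 E17 values. With the replicate number as a block 2371 genes were called and 1741 held; the numbers are not shown to pair samples, since the deviations of same-numbered libraries of E17 and P0 from their stage means correlated at 0.06 across genes. A correction for exonic length and GC content, chosen after seeing the data, gave 2923 and 2220. Other pseudocounts, filters, no variance trend and robust empirical Bayes kept both counts within 1.5 times. Over the genes of the naming rule and the text and these settings, 5297 values kept direction and call, 280 lost the call, 49 gained it and 6 turned. With 2 libraries a stage, the precision is limited by their number, and read depth is not known.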
